A study of Mus musculus with 3 samples.

Results

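Transporters that move chloride, bicarbonate, sodium, potassium, calcium, protons and zinc across neuronal and glial membranes were examined in adult mouse dentate gyrus. They were taken as every gene of the Slc4, Slc8, Slc9, Slc12, Slc24, Slc30 and Slc39 families whose name is the family number, the letter a and a member number. The rule uses the gene name and no measured value, and it found 62 genes among 33101 gene names with a value. The tissue was micro-dissected from both sides of wild-type male C57BL/6 mice aged 8 to 10 weeks, and poly(A) RNA was sequenced. The series held 1 group of 3 libraries described as biological replicates, with no mutant, treated or other comparison group. The table carries 1 value per gene for the whole group, in fragments per kilobase of transcript and per unit of mapped fragments (FPKM), a level scaled by transcript length. No replicate spread, read count or depth could therefore be attached to any value, no test between genes was possible, and differences below are differences between single values. Where 2 genes lie close in level, whether they differ beyond replicate spread is not known.

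As background, these families set the ionic conditions on which signalling depends. Cation-chloride cotransporters fix the chloride gradient that decides whether opening of GABA-A receptors inhibits or excites a neuron. Bicarbonate transporters and sodium-proton exchangers hold the pH of cytosol and organelles, sodium-calcium exchangers remove calcium after activity, and ZnT and ZIP proteins move zinc out of and into the cytosol. Granule cells of the dentate gyrus send the mossy fibres, whose terminals are known for synaptic vesicles rich in zinc.

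Most of the genes were present. At a threshold of 1 FPKM, 45 of 62 members (72.6%) were reached or exceeded, against 158 of 283 other Slc genes (55.8%), 11356 of 20135 protein-coding names (56.4%) and 13092 of all 33101 names (39.6%). At 10 FPKM the counts were 23 of 62 members (37.1%), 80 of 283 other Slc genes (28.3%) and 6208 of 20135 protein-coding names (30.8%). The median was 7.28 FPKM over all 62 members, 2.31 FPKM over the other Slc genes and 2.46 FPKM over protein-coding names. At 50 FPKM or more lay 5 members (8.06%), against 4.95% of other Slc genes and 6.58% of protein-coding names. These shares were not tested, since genes are not replicates. At the low end, 7 members were listed at 0, 8 lay above 0 and under 0.1 FPKM, and only 2 lay from 0.1 to under 1 FPKM.

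**Figure D1:**
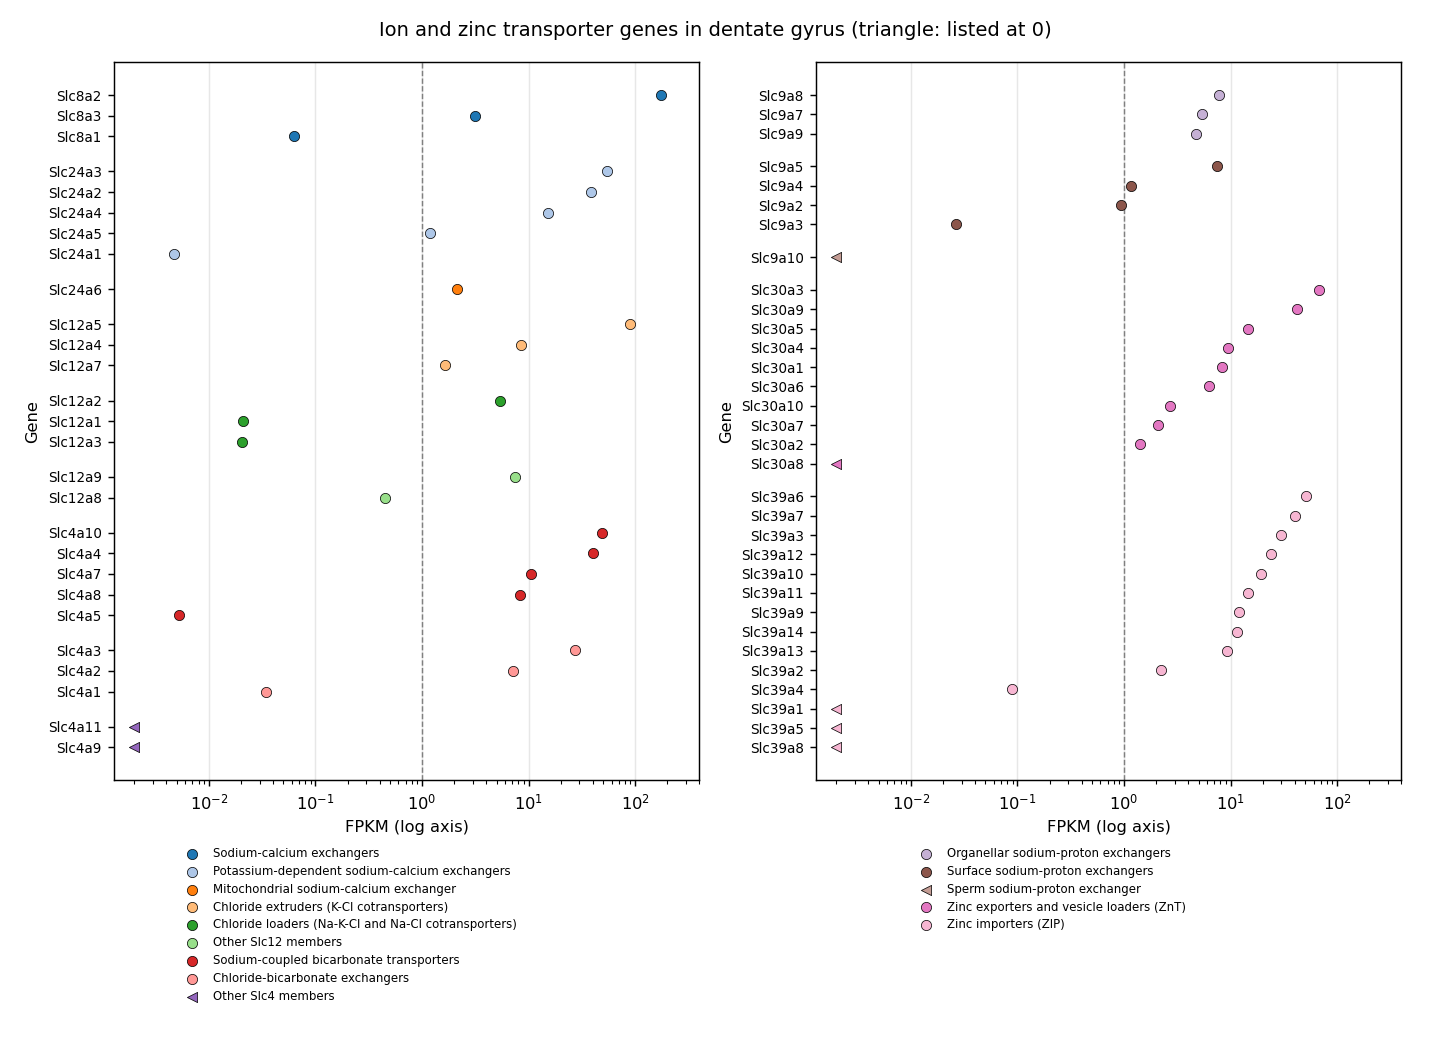
Level of 59 of the 62 genes in FPKM on a log axis, grouped by role, 1 point per gene. Points are the authors' single values, triangles mark genes listed at 0, and the dashed line is 1 FPKM. Slc8a2 stands highest at 173 FPKM, and most role groups hold 1 or 2 genes well above the others.

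**Figure D2:**
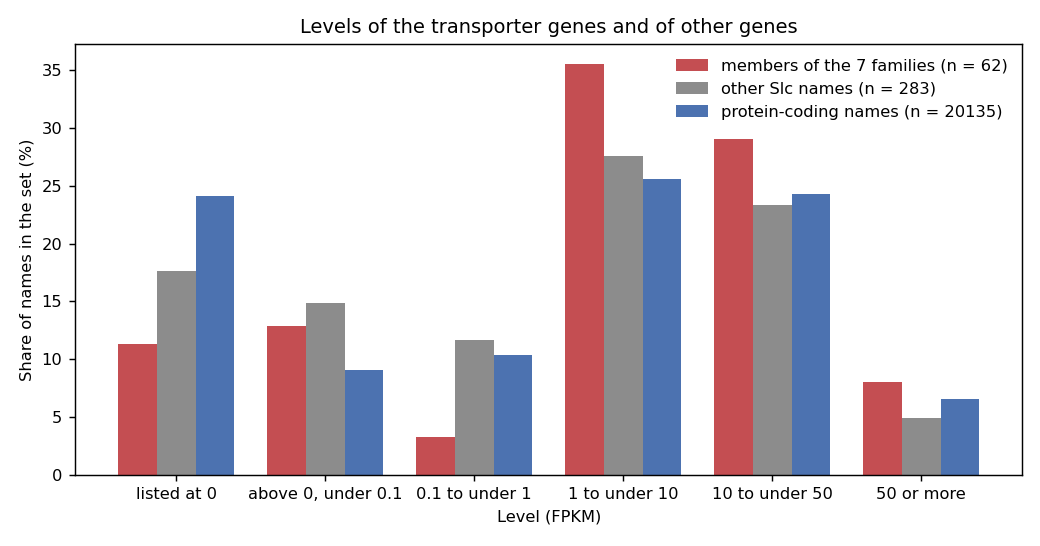
Share of names, in percent, falling in each band of FPKM for the 62 members, 283 other Slc genes and 20135 protein-coding names. The members have a smaller share listed at 0 (11.3%) than protein-coding names (24.1%) and a larger share from 1 to under 10 FPKM (35.5% against 25.6%).

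The labelled tissue was checked against marker genes. All 5 dentate granule cell markers exceeded 10 FPKM, from Dsp at 43.3 FPKM to C1ql2 at 111 FPKM. The 3 CA1 markers were lower, Wfs1 at 8.81 FPKM being the highest and Pou3f1 being listed at 0. Of 3 CA2 and CA3 markers, 2 exceeded 10 FPKM, Pcp4 being highest at 341 FPKM and Map3k15 lowest at 0.378 FPKM. Markers of other cells were present: all 5 astrocyte markers (26.3 to 267 FPKM, Aldh1l1 and Slc1a2), all 4 oligodendrocyte markers (6.72 to 261 FPKM, Mog and Mbp), all 4 interneuron markers (10.6 to 109 FPKM, Gad2 and Sst) and all 3 microglial markers (10.9 to 38.9 FPKM, Cx3cr1 and C1qb). Endothelial markers ranged up to Cldn5 at 7.96 FPKM, with Pecam1 listed at 0. Of 6 choroid plexus markers, Kl at 6.06 FPKM and Ttr at 2.13 FPKM passed 1 FPKM, and Folr1 was listed at 0. Of 4 red blood cell markers, Hbb-b1 was highest at 64.0 FPKM. Kidney and gut epithelial markers (3 genes, highest Vil1 at 0.106 FPKM, Umod and Aqp2 listed at 0) and photoreceptor and pigment cell markers (4 genes, highest Sag at 0.818 FPKM, lowest Tyr at 0.0104 FPKM) were all under 1 FPKM. A level in such mixed tissue belongs to no single cell type, and fewer cells of a type and less RNA per cell cannot be told apart.

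A calcium exchanger gene came first in level, although the median of the 3 Slc8 genes was 3.14 FPKM. Slc8a2, which encodes the brain sodium-calcium exchanger NCX2, was at 173 FPKM, the highest of the 62 members. It lay above 98.8% of protein-coding names, ranked 245 of 20135 among them and 8 of 345 among all Slc genes. Its listed transcript spans chr7:16715509-16745856 on the plus strand in mm9, the build of the table. That transcript was not found in the annotation used here (GENCODE M21), so the value of Slc8a2 and its ratios carry that limit. Slc8a1 (NCX1, the main exchanger of heart and also known from brain) was at 0.0628 FPKM, and Slc8a3 (NCX3, of brain and skeletal muscle) at 3.14 FPKM. Slc8a2 thus carried 98.2% of the summed FPKM of the family, 2753 times the value of Slc8a1, and Slc8a1 stood at 0.0200 of Slc8a3. The transcript listed for Slc8a1 is a form of 2913 nt, while the longest annotated form has 18464 nt, and whether the value covers only the listed form is not known. The ratio of Slc8a2 to Slc8a1 is set by the small value of Slc8a1, being 1062 with 0.1 FPKM added to both and 164 with 1 FPKM added. The promoter windows of these paralogs, the highest and the lowest of the family in level, are shown to let their CpG content be compared. Both come from RefSeq on GRCm38.p6, run from 250 bases before to 50 bases after the annotated start, and have CpG dinucleotides in capitals. That of Slc8a2 (chr7:16129576-16129875, plus strand) holds 10 CpGs and that of Slc8a1 (chr17:81738338-81738637, minus strand) holds 9. Whether either window is the start of the listed transcript was not tested.
Slc8a2: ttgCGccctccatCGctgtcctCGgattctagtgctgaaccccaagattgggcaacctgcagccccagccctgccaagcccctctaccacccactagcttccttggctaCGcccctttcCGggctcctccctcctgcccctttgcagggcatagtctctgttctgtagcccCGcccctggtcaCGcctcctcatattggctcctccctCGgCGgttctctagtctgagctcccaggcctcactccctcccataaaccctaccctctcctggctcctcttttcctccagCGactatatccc
Slc8a1: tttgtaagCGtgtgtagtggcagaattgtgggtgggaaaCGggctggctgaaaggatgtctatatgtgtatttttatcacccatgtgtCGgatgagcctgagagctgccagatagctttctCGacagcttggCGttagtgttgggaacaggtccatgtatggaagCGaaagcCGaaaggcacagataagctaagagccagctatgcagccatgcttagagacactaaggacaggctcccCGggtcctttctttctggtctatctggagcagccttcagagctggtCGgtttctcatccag

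The exchangers that also carry potassium (NCKX, Slc24) were spread differently. Of their 5 genes, 3 exceeded 10 FPKM. Slc24a2 (NCKX2, the neuronal form) was at 38.6 FPKM and Slc24a3 (NCKX3, broadly present in brain) at 53.8 FPKM, so that Slc24a2 stood at 0.718 of Slc24a3. Slc24a4 (NCKX4, known from brain and olfactory neurons) was at 15.0 FPKM, and Slc24a3 exceeded it by 3.58-fold. No single gene dominated: Slc24a3 made up 49.5% of the summed FPKM of the 5 genes. Slc24a5, which encodes the melanosome exchanger of pigment cells, was at 1.18 FPKM. It overlaps Myef2, read from the opposite strand at 19.9 FPKM, over 716 nt of transcript, and no strand-marking step is named in the labels' protocol, so the division of reads between the pair is uncertain. Slc24a1, the exchanger of rod photoreceptors, was at 0.00471 FPKM, beside the low photoreceptor markers. Slc24a6, now named Slc8b1, encodes the mitochondrial exchanger NCLX and was at 2.12 FPKM. The summed FPKM was 176 for the 3 Slc8 genes and 109 for the 5 NCKX genes, a ratio of 1.62. The plasma membrane calcium pumps, the other route of calcium removal, were all above 10 FPKM, from Atp2b4 at 26.3 FPKM through Atp2b2 at 62.7 FPKM to Atp2b1 at 69.7 FPKM, with a median of 51.8 FPKM. Sodium pump genes, which build the sodium gradient these exchangers use, were higher still, with a median of 205 FPKM over 7 genes, Atp1b1 at 448 FPKM and the testis form Atp1a4 at 0.0732 FPKM.

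Among chloride transporters, the highest extruder gene stood above every loader gene, but the lowest extruder gene lay below the highest loader gene. Slc12a5, which encodes the neuronal K-Cl extruder KCC2, was at 89.1 FPKM, second of all members. Its listed transcript, not the whole gene, spans chr2:164786316-164800040 in mm9. Slc12a2, which encodes the chloride loader NKCC1, was at 5.44 FPKM, so the ratio of Slc12a5 to Slc12a2 was 16.4. Slc12a4 (KCC1, widely expressed) was at 8.51 FPKM and Slc12a7 (KCC4, known from kidney and inner ear) at 1.64 FPKM. Slc12a5 exceeded them by 10.5-fold and 54.3-fold. The 2 kidney loaders were near the bottom, Slc12a1 (NKCC2) at 0.0209 FPKM and Slc12a3 (NCC) at 0.0203 FPKM, beside kidney and gut markers at or near 0. All 4 extruder genes passed 1 FPKM, against 1 of the 3 loader genes, and Slc12a2 made up 99.2% of the summed FPKM of the loaders. The transcript listed for Slc12a5 is a noncoding form of 465 nt, so its value and every ratio built on it carry that limit, and those listed for Slc12a2 and Slc12a7 were not in the annotation used. Without Slc12a5, the median of the other extruder genes was 8.51 FPKM. The less studied members Slc12a9 and Slc12a8 were at 7.52 and 0.453 FPKM.

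Slc12a5 has alternative first exons, and both RefSeq promoters are given because each can supply its transcript. The upstream one (chr2:164960596-164960895, plus strand) and the downstream one (chr2:164967738-164968037, plus strand) hold 21 CpGs each, shown in capitals, with an observed/expected CpG ratio (the CpG count relative to that given by the C and G content) of 0.703 and 0.616.
Slc12a5 upstream start: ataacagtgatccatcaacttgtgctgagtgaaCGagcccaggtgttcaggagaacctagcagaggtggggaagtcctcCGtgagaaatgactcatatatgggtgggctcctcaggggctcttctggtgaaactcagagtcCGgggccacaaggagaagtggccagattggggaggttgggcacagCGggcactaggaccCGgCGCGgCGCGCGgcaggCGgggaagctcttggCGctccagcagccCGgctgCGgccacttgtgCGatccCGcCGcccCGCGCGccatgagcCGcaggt
Slc12a5 downstream start: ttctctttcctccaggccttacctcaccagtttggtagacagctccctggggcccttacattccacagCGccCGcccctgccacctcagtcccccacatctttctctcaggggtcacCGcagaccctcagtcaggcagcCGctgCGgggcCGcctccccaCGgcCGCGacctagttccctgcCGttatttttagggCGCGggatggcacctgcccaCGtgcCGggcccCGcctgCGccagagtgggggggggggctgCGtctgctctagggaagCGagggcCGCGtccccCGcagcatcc
Of 8 genes for kinases and partners that control these cotransporters, 7 passed 1 FPKM, and the median of the 8 was 5.41 FPKM. Cab39, a scaffold protein that activates the kinases of this pathway, was highest at 43.3 FPKM, the chloride-sensing kinase Wnk1 was at 30.7 FPKM, and Wnk2 was lowest at 0.111 FPKM. Of 9 ClC genes, which encode chloride channels and chloride-proton exchangers, 6 passed 1 FPKM, and the median of the 9 was 14.1 FPKM. The endosomal exchangers Clcn4-2 and Clcn3 led at 38.5 and 37.5 FPKM. Both medians lie above that of protein-coding names (2.46 FPKM).

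Among bicarbonate transporter genes, the highest in level were the sodium-coupled Slc4a10 and Slc4a4, followed by the exchanger gene Slc4a3. Slc4a4 (NBCe1, the electrogenic cotransporter known from astrocytes) was at 40.4 FPKM. Slc4a10, which encodes a sodium-coupled bicarbonate transporter of neurons and choroid plexus, was at 48.7 FPKM (listed transcript chr2:61884519-62164787 in mm9). Slc4a4 thus stood at 0.830 of Slc4a10. Slc4a8 (NDCBE, a sodium-driven chloride-bicarbonate exchanger of neurons) was at 8.28 FPKM and Slc4a7 (NBCn1) at 10.6 FPKM. Slc4a8 stood at 0.785 of Slc4a7, and Slc4a10 exceeded Slc4a8 by 5.88-fold. Slc4a5, known from choroid plexus, was at 0.00520 FPKM, beside choroid plexus markers of which 4 of 6 were under 1 FPKM. Among exchangers that need no sodium, Slc4a3 (AE3, of brain and heart) was at 27.0 FPKM, 3.76 times Slc4a2 (AE2, widely expressed) at 7.17 FPKM, and the red cell exchanger Slc4a1 (band 3) was at 0.0342 FPKM, while globin genes were present. The form listed for Slc4a2 has 405 nt with little coding sequence, and 257 nt of its longest coding transcript are shared with Fastk, at 32.2 FPKM, so its value is uncertain. The transcripts listed for Slc4a3 and Slc4a7 were not in the annotation used, so their values and ratios carry that limit. The 5 sodium-coupled genes summed to 108 FPKM and the 3 exchangers to 34.2 FPKM, a ratio of 3.16. Slc4a9, known from kidney, and Slc4a11, known from corneal endothelium, were both listed at 0.

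The high level of Slc4a10 was found beside a promoter poor in CpG. The upstream RefSeq window (chr2:62046265-62046564, plus strand, CpGs in capitals) holds 4 CpGs, an observed/expected ratio of 0.229, and is given as a case of low CpG content in a gene of high level.
Slc4a10: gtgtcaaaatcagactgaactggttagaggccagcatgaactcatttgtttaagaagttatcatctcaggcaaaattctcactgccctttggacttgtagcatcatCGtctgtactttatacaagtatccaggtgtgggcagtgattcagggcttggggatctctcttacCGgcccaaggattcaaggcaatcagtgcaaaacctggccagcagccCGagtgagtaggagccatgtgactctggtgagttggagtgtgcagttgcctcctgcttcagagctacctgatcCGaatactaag
Carbonic anhydrases, which interconvert carbon dioxide and bicarbonate, split widely. Of 16 genes, 9 reached 1 FPKM, and the median was 1.74 FPKM. The cytosolic enzyme gene Car2, known from oligodendrocytes and other glia, was highest at 63.2 FPKM, the catalytically inactive relative Car11 was at 56.7 FPKM, and the liver mitochondrial form Car5a was listed at 0. The Slc26 anion transporters were low as a family, with 5 of 11 at 1 FPKM or more and a median of 0.967 FPKM. Slc26a10 at 10.0 FPKM and Slc26a4 (pendrin) at 5.20 FPKM led it, and Slc26a7 was lowest at 0.0143 FPKM.

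Sodium-proton exchangers were mostly of moderate level. All 4 genes of the organellar group passed 1 FPKM, as did 3 of 5 genes of the surface group. Slc9a8, of the Golgi, was at 7.85 FPKM, Slc9a7, of the trans-Golgi network, at 5.34 FPKM, and Slc9a9, of endosomes, at 4.72 FPKM, so these 3 lay close together. At the cell surface, the brain form Slc9a5 was at 7.39 FPKM. The stomach and gut forms Slc9a4 and Slc9a2 were at 1.17 and 0.939 FPKM, just above and just below the threshold, and the brush border exchanger gene Slc9a3 was at 0.0267 FPKM. The sperm exchanger gene Slc9a10, now Slc9c1, was listed at 0. Of 5 listed partner genes 4 had a value, and all 4 exceeded 10 FPKM with a median of 33.0 FPKM. Tesc, which encodes a calcium-binding regulator of sodium-proton exchange, was at 45.7 FPKM, the calcineurin-like partner gene listed as 1500003O03Rik (Chp1) at 38.6 FPKM, and the scaffold gene Slc9a3r2 at 13.4 FPKM.

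**Figure D3:**
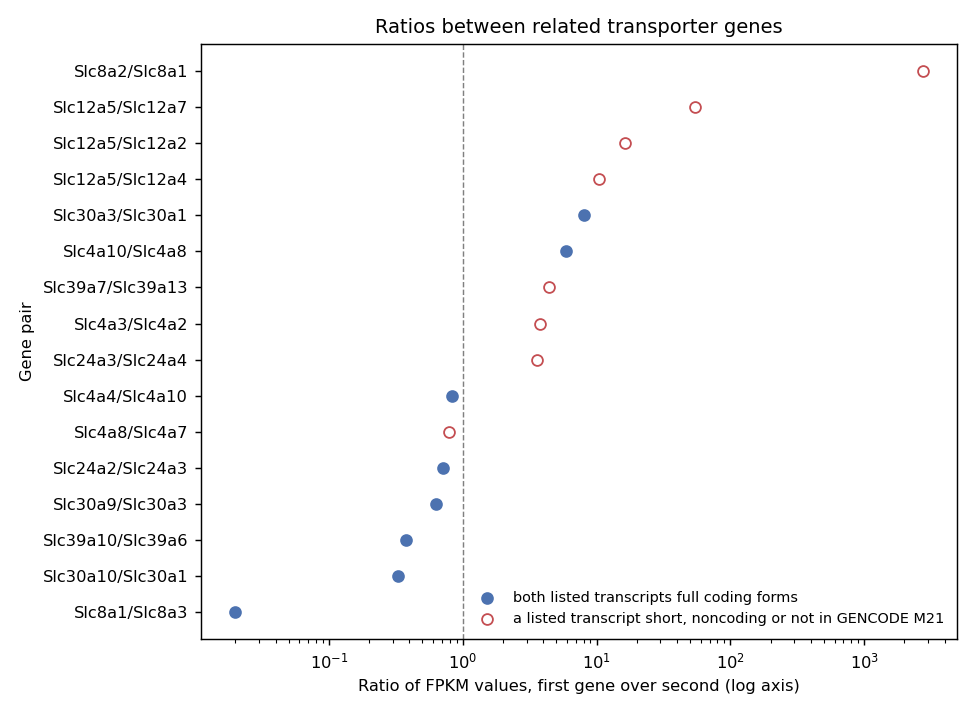
Ratio of FPKM values, first gene over second, on a log axis for 16 pairs in which both genes were above 0. Filled points have full coding listed transcripts for both genes; open points carry a short, noncoding or unmatched listed transcript. Ratios run from 0.0200 (Slc8a1/Slc8a3) to 2753 (Slc8a2/Slc8a1), and 9 lie above 1.

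Zinc exporters included the third highest member. Slc30a3, which encodes ZnT3, the carrier that fills synaptic vesicles with zinc, was at 67.2 FPKM, above 95.6% of protein-coding names. Its listed transcript spans chr5:31388479-31395988 on the minus strand in mm9. The value of Slc30a3 was 8.13 times that of Slc30a1, the gene of the plasma membrane exporter ZnT1, at 8.27 FPKM. Slc30a9, whose product acts in mitochondria, was at 42.3 FPKM, 0.630 of the value of Slc30a3. Slc30a5, of the early secretory pathway, was at 14.4 FPKM and its partner Slc30a6 at 6.25 FPKM, Slc30a4 at 9.35 FPKM and Slc30a7, also of the secretory pathway, at 2.09 FPKM. Slc30a10, known as a manganese exporter, was at 2.70 FPKM, 0.327 of Slc30a1, and the mammary form Slc30a2 at 1.43 FPKM. Slc30a8, of pancreatic beta cell granules, was listed at 0. In all, 9 of 10 ZnT genes passed 1 FPKM, 3 of which also passed 10 FPKM, and the family median was 7.26 FPKM. Opposite-strand or overlapping transcripts share sequence with Slc30a10 (Gm2061, at 1.74 FPKM), so that value is uncertain, and 469 nt of Slc30a1 are shared with 1700034H15Rik, at 0.526 FPKM.

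Promoters of zinc transporters are shown since the zinc sensor MTF1 acts through a short element of known sequence. The windows of Slc30a3 are given with CpGs in capitals, the upstream start (chr5:31108195-31108494, minus strand) with 15 CpGs and the downstream start (chr5:31093478-31093777, minus strand) with 19. That of Slc30a1 (chr1:191906531-191906830, plus strand) is given with 2 matches to the core of the metal response element in capitals, searched as TGCACNC and TGCGCNC on both strands. The upstream window of Slc30a3 also held 1 match, which is not marked, and its downstream window held 0.
Slc30a3 upstream start: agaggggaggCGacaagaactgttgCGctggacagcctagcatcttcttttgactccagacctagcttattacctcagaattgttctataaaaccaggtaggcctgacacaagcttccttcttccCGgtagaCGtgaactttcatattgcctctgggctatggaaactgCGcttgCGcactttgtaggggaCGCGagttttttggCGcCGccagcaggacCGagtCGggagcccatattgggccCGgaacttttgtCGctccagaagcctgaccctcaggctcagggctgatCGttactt
Slc30a3 downstream start: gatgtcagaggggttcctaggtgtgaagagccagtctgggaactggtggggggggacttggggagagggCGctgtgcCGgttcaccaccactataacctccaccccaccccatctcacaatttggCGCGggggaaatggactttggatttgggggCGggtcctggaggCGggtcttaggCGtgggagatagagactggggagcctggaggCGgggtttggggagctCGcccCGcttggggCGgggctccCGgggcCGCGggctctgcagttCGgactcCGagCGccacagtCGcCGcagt
Slc30a1: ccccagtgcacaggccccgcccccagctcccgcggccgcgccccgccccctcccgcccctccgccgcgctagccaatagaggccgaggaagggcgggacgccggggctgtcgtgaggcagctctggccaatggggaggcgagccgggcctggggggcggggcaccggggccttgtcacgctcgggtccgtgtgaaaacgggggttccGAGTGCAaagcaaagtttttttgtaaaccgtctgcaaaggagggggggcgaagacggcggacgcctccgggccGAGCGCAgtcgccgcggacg
Of 9 ZnT genes with a RefSeq promoter, 6 (66.7%) held at least 1 match in at least 1 window, as did 5 of 11 ZIP genes (45.5%). Of all 48 members with a promoter, 47.9% held a match, as did 28.2% of all 27025 genes of the promoter table. That background rose with level. It was 44.5% of table genes at 10 FPKM or more, 39.6% at 1 to under 10 FPKM and 22.3% under 1 FPKM. Counted by window, 25.7% of 32851 promoters held a match. Slc30a10 and Slc30a4 had 3 matches each and Slc30a2 had 2. The motif is short and rich in G and C, as are these promoters, so a match describes the letters only. Metallothionein genes, whose products bind zinc in the cytosol, ranged widely. Mt1 was at 492 FPKM and Mt3 (the brain form) at 391 FPKM, both above every member, and Mt4 was listed at 0. The median was 289 FPKM over 5 genes that included the sensor gene Mtf1 at 6.05 FPKM. The transcripts listed for Mt1 and Mt3 are short (549 and 536 nt), and what this does to a level scaled by length was not tested. All 7 genes of the AP-3 adaptor, which sorts ZnT3 to synaptic vesicles, reached 1 FPKM, with a median of 20.2 FPKM. Ap3b2, the neuronal subunit, was at 43.1 FPKM, Ap3d1 at 41.5 FPKM and Ap3m1, the lowest, at 7.48 FPKM. The transcript listed for Ap3b2 was noncoding and that for Mt1 a short coding form, so both values carry that limit.

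Zinc importers were more evenly spread. Of 14 ZIP genes, 10 passed 1 FPKM, 8 of which also passed 10 FPKM, and the family median was 11.7 FPKM. The highest, Slc39a6 at 51.2 FPKM, made up only 24.0% of the family sum. Slc39a10, whose product forms a complex with that of Slc39a6, was at 19.2 FPKM, 0.376 of the value of Slc39a6. Slc39a7, which releases zinc from the endoplasmic reticulum, was at 40.5 FPKM, 4.38 times Slc39a13, of the Golgi, at 9.24 FPKM, which shares 100 nt with Psmc3 at 101 FPKM. In the Slc39a7 transcript with the longest coding sequence, 1523 of 2320 nt are shared with the predicted gene Gm20427. Slc39a3, a plasma membrane importer gene, was at 29.4 FPKM, Slc39a12, a brain form known from astrocytes, at 23.7 FPKM, Slc39a11 at 14.4 FPKM, Slc39a9 at 11.9 FPKM and Slc39a14, which also carries manganese and iron, at 11.4 FPKM. Slc39a9 overlaps Erh, at 24.8 FPKM, by 103 nt. Slc39a2 was at 2.24 FPKM, with a retained-intron form listed, and Slc39a4, the gut zinc importer, at 0.0883 FPKM. Slc39a5, of pancreas and gut, Slc39a8, a manganese and zinc importer, and Slc39a1 were listed at 0. The value of Slc39a1, a gene known to be expressed in most tissues, cannot be read as absence: a processed copy, Slc39a1-ps, matches it at 97.7% over 973 nt and was also listed at 0, and the assignment of reads that match both is unknown. Since one gene of each was listed at 0, the pairs of Slc39a1 with Slc39a3 and of Slc39a14 with Slc39a8 were given no ratio. Its promoter (chr3:90247942-90248241, plus strand, CpGs in capitals) holds 23 CpGs, more than the windows of Slc12a5 or Slc30a3 above.
Slc39a1: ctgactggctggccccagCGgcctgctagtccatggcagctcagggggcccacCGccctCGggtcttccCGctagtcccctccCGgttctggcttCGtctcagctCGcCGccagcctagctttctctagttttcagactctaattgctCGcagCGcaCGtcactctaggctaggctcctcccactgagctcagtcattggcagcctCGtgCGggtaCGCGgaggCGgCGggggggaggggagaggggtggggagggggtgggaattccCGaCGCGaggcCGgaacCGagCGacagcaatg
Summed over genes, the 10 ZnT genes gave 154 FPKM and the 14 ZIP genes 213 FPKM, a ratio of 0.722.

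**Figure D4:**
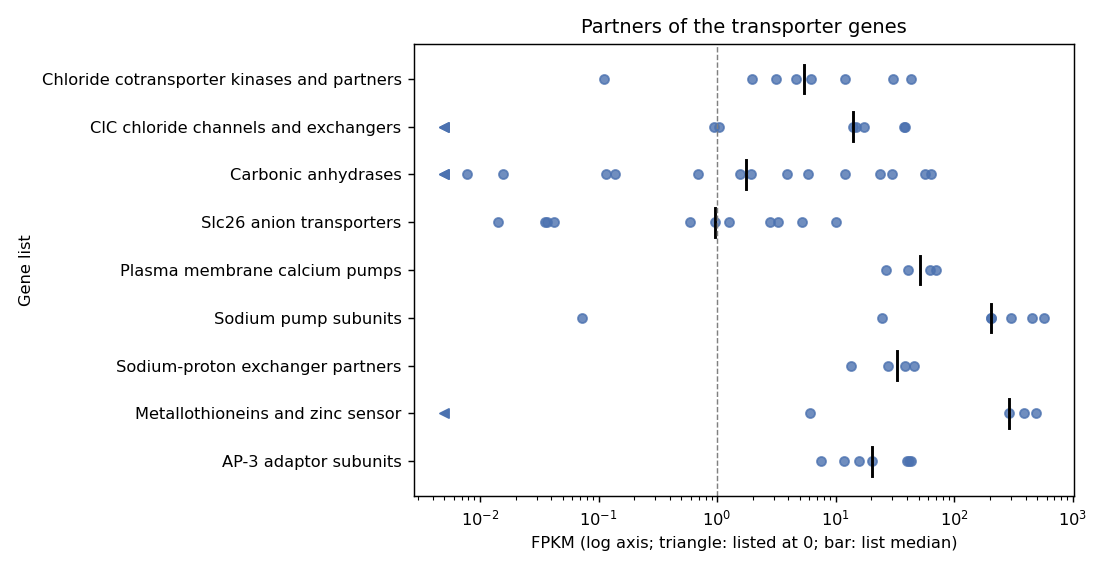
Levels in FPKM on a log axis for 9 lists of genes that act with the transporters, 1 point per gene, with the list median as a bar and triangles for genes listed at 0. Metallothioneins (median 289 FPKM) and sodium pump subunits (205 FPKM) lie highest, and Slc26 anion transporters (0.967 FPKM) lowest.

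Promoter composition was compared across the members with a RefSeq window, 48 of 62. The members at 10 FPKM or more (18 genes) had a median CpG observed/expected ratio of 0.651, those from 1 to under 10 FPKM (19 genes) 0.719, and those under 1 FPKM (11 genes) 0.308. A ratio of 0.6 or more was held by 11 of 18, 15 of 19 and 2 of 11 of these genes. Low CpG content of low genes was also present over the whole promoter table, where medians were 0.782 at 10 FPKM or more, 0.733 at 1 to under 10 FPKM and 0.256 under 1 FPKM. Exceptions on both sides were Slc4a10 and Slc4a7, with mean ratios of 0.188 and 0.132 at 48.7 and 10.6 FPKM, and Slc9a3 and Slc39a1, with 0.727 and 0.691 at 0.0267 FPKM and listed at 0. Genes with more than 1 annotated start could hold unlike windows: in Slc39a10 one held 1 CpG and the other 47, and in Slc4a4 one held 50 and the other 3. Which start was used in this tissue was not tested.

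**Figure D5:**
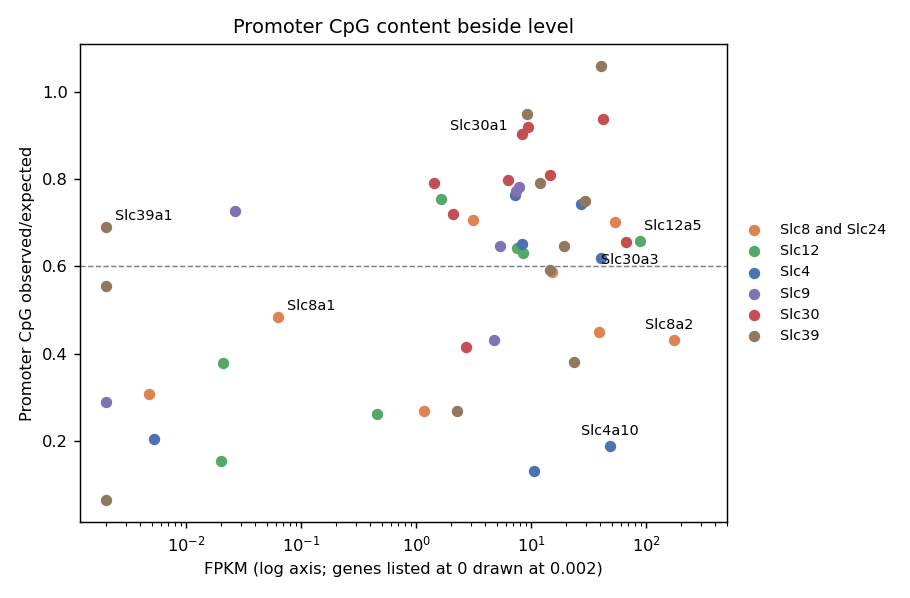
Promoter CpG observed/expected ratio, averaged over the annotated starts of a gene, against FPKM on a log axis for 48 members, coloured by family. The dashed line is a ratio of 0.6, reached by 2 of 11 genes under 1 FPKM and by 11 of 18 genes at 10 FPKM or more.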

How the data were processed

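The values are FPKM, deposited by the authors in 1 table for the whole series, with 1 column of values for the wild-type group. The submitters' processing notes name TopHat, Cufflinks, mm9 and NCBIM37. Their versions, any strand setting and how the 3 libraries were combined were not given in the sources used here. Depth is unknown, so no interval, detection limit, SD or p-value is given.

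Of 37681 rows, 36469 held a value. Rows sharing a name (311 names) were summed; no member shared one. Each row pairs a gene with 1 listed transcript, and whether its value belongs to the gene or that transcript is not stated. By identifier in GENCODE M21, the listed transcript was a full coding form for 47 members, coding but under 0.5 of the longest coding length for 2, noncoding for 3 and not found for 10. Those not found were Slc8a2, Slc4a3, Slc24a4, Slc39a14, Slc4a7, Slc39a13, Slc12a2, Slc12a7, Slc9a10 and Slc4a9, whose values and ratios carry that limit. Among the partner genes named, the listed transcript was noncoding for Ap3b2, short coding for Mt1 and not found for Atp2b1, Atp2b2 and Slc26a10. Among the markers named, it was noncoding for Aldh1l1 and short coding for Pcp4. Promoters came from RefSeq on GRCm38.p6, a build other than that of the table. Shared sequence was searched with blastn 2.17.0 at 95% identity over at least 100 nt, and 15 of 62 members had a match in another gene. Pair ratios use no pseudocount. Members, lists, pairs and alternatives were chosen with earlier results of these data known. The rule for named genes takes every member, the 2 highest and the lowest gene of each partner list, the highest and lowest of each marker list and both genes of each pair; some genes that it takes are not reported here. Protein sequences were not used here. Functions were tested on simulated data. Tools were matplotlib 3.10.9, scipy 1.17.1, numpy 2.4.6, pandas 2.3.3 and Python 3.11.15.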

Additional observations from a re-analysis of the deposited data

How the results depend on the processing

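No paired analysis was possible because the table holds 1 value per gene and no second group, and leaving out each library was not run for the same reason. A value was counted as unchanged when it stayed within 1.5 times. Over 51 results and 135 alternatives, 122 values were unchanged and 13 moved. Of the unchanged values, 40 came from keeping the highest row of a shared name, which could change nothing because no member shared one. Leaving out noncoding listed forms (13 unchanged) or genes listed at 0 (21 unchanged) also could change nothing in groups that held none. Most groups held none, so the count of unchanged values does not measure stability. Adding the same amount to both genes cannot carry a ratio across 1, so the side of 1 on which a ratio lies was not tested. The number of members present was 46 at a threshold of 0.5 FPKM and 35 at 5 FPKM. Among the 47 members with a full coding listed transcript, a check chosen after seeing the data, 70.2% reached 1 FPKM and the median was 6.25 FPKM. With a geometric mean of FPKM + 0.1 in place of the median, the level of all members was 3.34, and it was 5.21 for the NCKX genes, 3.86 for the ZIP genes, 2.88 for the chloride-bicarbonate exchangers, 1.95 for the other Slc12 members and 0.332 for the chloride loaders. Without the noncoding listed form, the K-Cl extruder median was 8.51 FPKM. Without genes listed at 0, the carbonic anhydrase median was 2.89 FPKM. With 1 FPKM added to both genes, Slc12a5/Slc12a7 was 34.1, Slc8a2/Slc8a1 164 and Slc8a1/Slc8a3 0.257, and with 0.1 FPKM added the ratios of Slc8a2/Slc8a1 and Slc8a1/Slc8a3 were 1062 and 0.0502.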

Other observations

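The 62 genes lie on many chromosomes, and only 2 pairs of members were within 200 kb of each other in the mm9 positions of the table. Slc9a4 and Slc9a2 lie 51.0 kb apart on the same strand of chromosome 1, at 1.17 and 0.939 FPKM. Slc24a5 and Slc12a1 lie 63.8 kb apart on the same strand of chromosome 2, at 1.18 and 0.0209 FPKM.

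The listed transcripts of the 55 members above 0 spanned 2.92 to 561 kb of genome, with a median of 44.5 kb. Across these genes, span and level had a Spearman correlation of 0.0050, a description over genes that share 1 set of values.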
